A study of Mus musculus with 15 samples.

Results

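The superoxide dismutases, the glutathione peroxidases and catalase were followed as 9 genes, Sod1, Sod2, Sod3, Gpx1, Gpx3, Gpx4, Gpx7, Gpx8 and Cat, in cultured mouse muscle satellite cells given adenosine or adenosine monophosphate (AMP). The genes were taken by symbol, and all 9 were present among the 46078 genes of the batch 1 count table and the 13063 named genes of the batch 2 count table. Of these, 7 were listed by family alone, whereas Gpx3 and Sod3 were chosen by their measured difference from DMSO, having been seen to be clearly higher in these same data. For Gpx3 and Sod3 the differences between groups are therefore a description and carry no test.

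The satellite cells, stem cells of muscle, were taken from the hindlimb, cultured in F10 with 10% horse serum and exposed for 24 h. In batch 1 there were 3 DMSO controls and 3 libraries from cells given 0.05 mM adenosine. In batch 2, from C57BL/6J mice, 3 libraries each came from cells given DMSO, 0.1 mM adenosine or 0.25 mM AMP. The sources used here give neither the strain of batch 1 nor the age of the mice, and do not say that replicates were separate animals or cultures, so a p-value speaks only for the spread among these replicates, which could be technical. Adenosine is a nucleoside and AMP is adenosine carrying a 5' phosphate. The dose of adenosine and the batch changed together and cannot be told apart, and neither can compound and dose between the AMP and adenosine groups.

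Superoxide, which leaks from mitochondrial respiration and is made by NADPH oxidases, is turned into hydrogen peroxide by the superoxide dismutases. SOD1 acts mainly in the cytosol, SOD2 in the mitochondrial matrix and SOD3 outside the cell, and SOD1 and SOD3 carry copper and zinc while SOD2 carries manganese. Hydrogen peroxide and lipid peroxides are then reduced by glutathione peroxidases at the expense of glutathione, and hydrogen peroxide is also split by catalase in peroxisomes. In muscle stem cells these enzymes are part of the control of redox state that accompanies quiescence, activation and differentiation.

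The glutathione peroxidases divide by the residue at the catalytic centre, which their coding sequences show. The stretches below run 5' to 3' over the catalytic codon, which is in capitals, with 15 bases before it and 18 after it, as read from the GENCODE M21 transcript with the longest coding sequence that holds the conserved stretch.
Gpx1: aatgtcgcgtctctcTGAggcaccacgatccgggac
Gpx3: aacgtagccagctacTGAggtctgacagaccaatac
Gpx4: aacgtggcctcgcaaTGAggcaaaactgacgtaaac
Gpx7: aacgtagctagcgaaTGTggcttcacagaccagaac
Gpx8: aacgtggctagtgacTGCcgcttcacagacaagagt
Gpx1, Gpx3 and Gpx4 each hold 1 in-frame TGA codon, which is read as selenocysteine, whereas Gpx7 and Gpx8 hold a cysteine codon at the same place and no in-frame TGA. In GRCm38 the codon lies in coding sequence at 9:108339451-108339453 (Gpx1, codon 47), 11:54907256-54907258 (Gpx3, codon 73), 10:80054737-80054739 (Gpx4, codon 129), 4:108403430-108403432 on the minus strand (Gpx7, codon 56) and 13:113045661-113045663 on the minus strand (Gpx8, codon 79). The results below are ordered by these roles.

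The libraries of batch 1 held 14683346 to 20799588 counts, those of batch 2 held 11107450 to 14201933. Levels are the deposited FPKM (fragments per kilobase of transcript, scaled to library depth and by a factor per library), which can be compared between genes. That factor was higher in every DMSO library than in any treated library of its batch. Fold changes are from edgeR's quasi-likelihood test on the counts. The p-values have Benjamini-Hochberg adjustment over all genes tested, with a call at an adjusted p under 0.05. Every member passed the filter on low counts. The labels mention no spike-in, so all values are relative to the other RNA of the library, and fewer cells of a type and less RNA per cell cannot be told apart. The treatments moved a large share of all genes: 39.2% of 13842 genes were called in batch 1 (2714 higher and 2706 lower), 69.4% of 13063 with adenosine in batch 2 (4559 and 4508) and 65.6% with AMP (4405 and 4159). This balance rests on the TMM scaling. With library totals alone the median over all genes moved, on the log2 scale, from 0.03 to 0.22 in batch 1, from 0.01 to 0.32 with adenosine in batch 2 and from 0.01 to 0.28 with AMP, and the calls became 4012 higher and 1955 lower, 6344 and 2891, and 6037 and 2605.

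Sod1 was the most abundant member per transcript length in DMSO and Sod3 the least. In batch 1 DMSO the mean level ran from 625 FPKM for Sod1 through 364 for Gpx3, 362 for Gpx1, 160.3 for Gpx4, 99.2 for Gpx8, 38.1 for Sod2, 32.7 for Cat and 14.6 for Gpx7 to 6.85 for Sod3. In that order only Gpx3 and Gpx1 overlapped between libraries. In batch 2 DMSO the order was Sod1 (307 FPKM), Gpx1 (196), Gpx4 (105), Gpx8 (89.6), Gpx3 (86.5), Sod2 (42.5), Cat (27.0), Gpx7 (12.01) and Sod3 (2.10), with overlap between Gpx4 and Gpx8 and between Gpx8 and Gpx3. With adenosine Gpx3 stood first in batch 1, at 649.7 FPKM, overlapping Sod1, and second to Sod1 in batch 2. Sod3 moved from the last place to among Sod2 and Cat: it overlapped both in batch 1, and Cat alone in the adenosine and AMP groups of batch 2. Gpx7 was then the lowest in all 3 treated groups. Sod1 lay above 99.6% of the 21635 genes detected in batch 1 DMSO, and Sod3 above 71.9% of them. The 3 remaining family members were near absent: Gpx2 had no counts in batch 1, Gpx5 had at most 3 and Gpx6 at most 2 counts in a library, and none of them was tested.

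**Figure D1:**
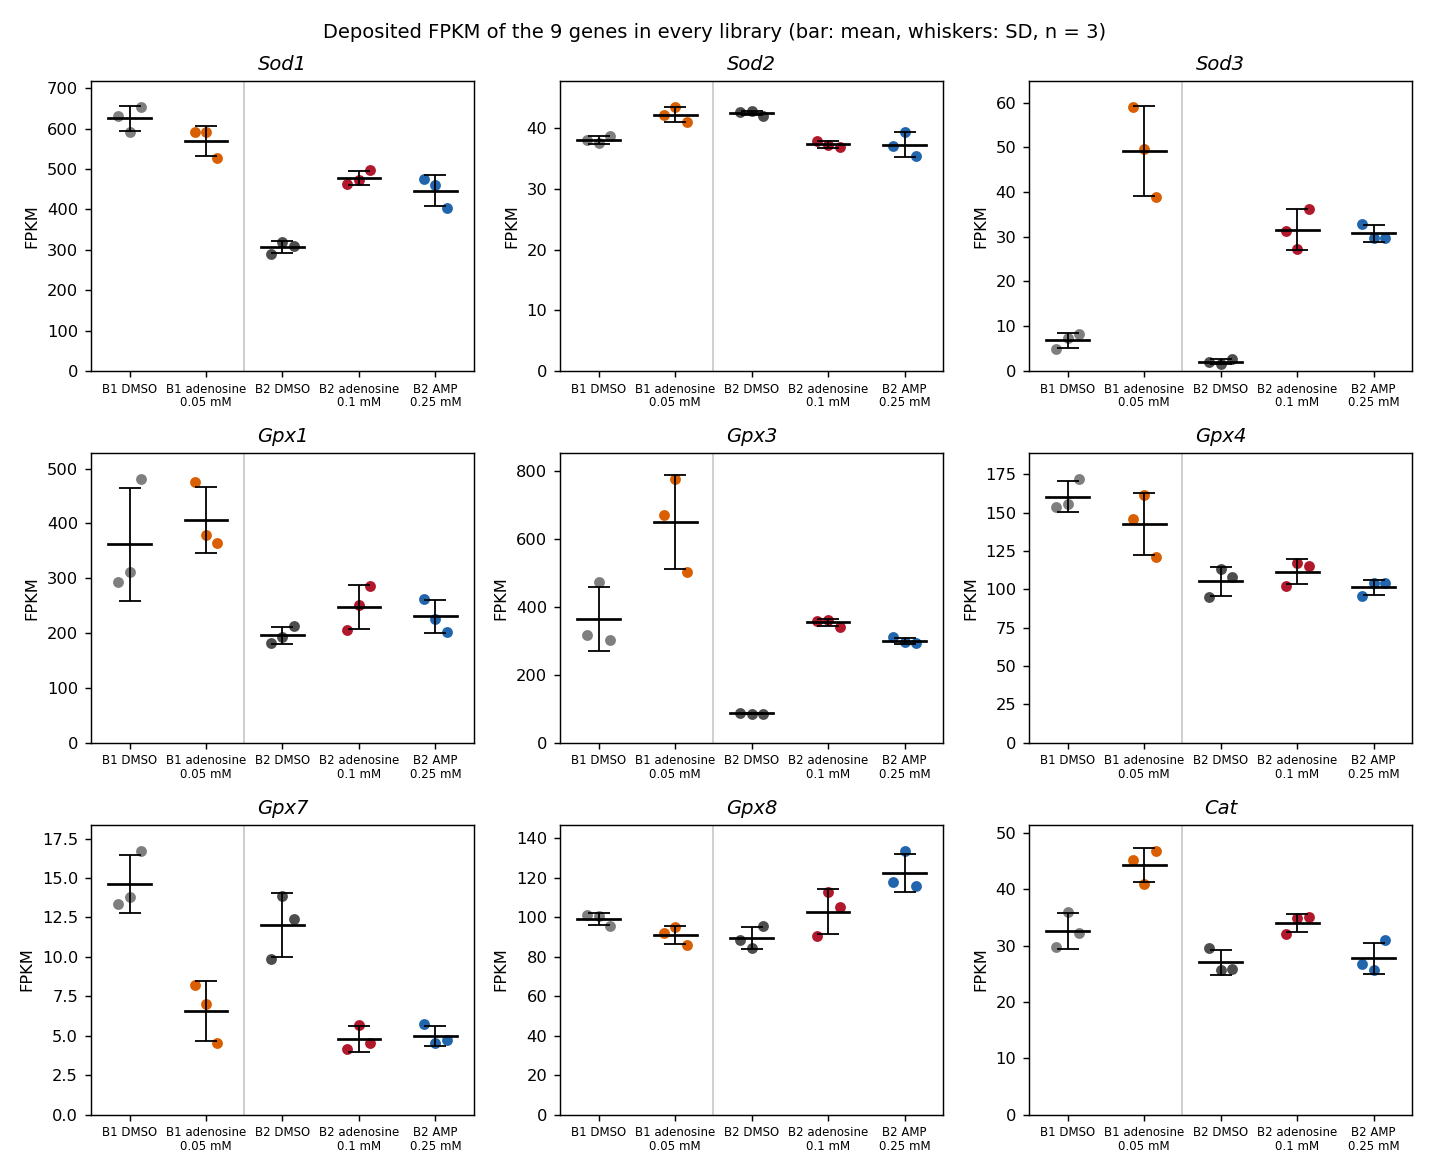
Deposited FPKM of each of the 9 genes (vertical axes, from 0) in every library, by group (B1, batch 1, B2, batch 2), with the group mean as a bar and the SD as whiskers, n = 3. Sod3 and Gpx3 lie higher in each treated group than in the DMSO libraries of the same batch, Gpx7 lies lower, and Sod1 lies higher than DMSO in batch 2.

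Sod3 and Gpx3, the members whose products are secreted, were chosen for their differences from DMSO. Among the 9 genes Sod3 had the largest fitted difference in each comparison with DMSO and Gpx3 the next largest in batch 2, whereas in batch 1 Gpx7 differed more than Gpx3. Sod3 (5:52363791-52371418, plus strand) was at 4.88, 7.39 and 8.27 FPKM in the DMSO libraries of batch 1 and at 58.9, 49.7 and 38.8 FPKM with 0.05 mM adenosine. In batch 2 it was at 2.04, 1.55 and 2.72 FPKM with DMSO, at 31.3, 27.3 and 36.2 with adenosine and at 32.9, 29.7 and 29.7 with AMP. The lowest treated library thus lay far above the highest DMSO library of its batch. The fitted differences were 2.86 on the log2 scale in batch 1 (SE 0.20, 7.24-fold), 3.89 with adenosine in batch 2 (SE 0.15, 14.9-fold) and 3.86 with AMP (SE 0.15, 14.6-fold). The DMSO base of batch 2 rested on 58 to 112 counts per library, against 1455 to 1771 with adenosine. The authors' deposited table, which codes batch 1 as DMSO over adenosine, gives -2.85.

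Gpx3 (11:54902453-54910377, plus strand), the plasma glutathione peroxidase, was far more abundant than Sod3 before treatment. It was at 316, 473 and 304 FPKM with DMSO and 671, 776 and 502 FPKM with adenosine in batch 1. In batch 2 it was at 87.9, 85.5 and 86.2 FPKM with DMSO, 358, 363 and 342 with adenosine and 310.2, 298 and 293 with AMP. The groups did not overlap within either batch, although the highest DMSO library of batch 1 and its lowest adenosine library were close. The fitted differences from DMSO were 0.84 (SE 0.18, 1.79-fold), 2.03 (SE 0.07, 4.07-fold) and 1.80 (SE 0.07, 3.48-fold) on the log2 scale. The authors' deposited table gives -0.84 for batch 1, coded as DMSO over adenosine.

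Sod1 and Sod2, the intracellular dismutases, passed the test in batch 2, in opposite directions, and not in batch 1. Sod1 (16:90220742-90226322, plus strand) was at 631, 592 and 653 FPKM with DMSO and 591, 592 and 527 FPKM with adenosine in batch 1, where the adenosine libraries lay just below the DMSO libraries. The log2 fold change there was -0.12 (SE 0.11) with an adjusted p of 0.389, and it turned to 0.07 with library totals. As counts per kilobase scaled to the library total, the mean level was 588 with DMSO and 618 with adenosine, the other way round from FPKM. In batch 2 Sod1 was at 290.2, 319 and 311 FPKM with DMSO, 464, 474 and 498 with adenosine and 475, 461 and 402 with AMP, so every treated library lay above every DMSO library. It rose by 0.64 (SE 0.08, adjusted p = 2.10e-06, 1.55-fold) with adenosine and by 0.54 (SE 0.08, adjusted p = 1.37e-05, 1.46-fold) with AMP on the log2 scale. The DMSO libraries of the 2 batches differed more than that: the mean was 625 FPKM in batch 1 and 307 FPKM in batch 2.

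Sod2 (17:13007839-13018119, plus strand) was the steadiest member in level. It was at 38.1, 37.5 and 38.8 FPKM with DMSO and 42.3, 43.5 and 41.0 FPKM with adenosine in batch 1, a log2 fold change of 0.16 with an adjusted p of 0.262, which was called higher with library totals (0.35, adjusted p = 0.0182). In batch 2 it was at 42.6, 42.8 and 42.1 FPKM with DMSO, 38.0, 37.3 and 36.9 with adenosine and 37.1, 39.5 and 35.4 with AMP. It fell by 0.19 (SE 0.07) on the log2 scale with adenosine (adjusted p = 0.0172) and by 0.19 (SE 0.07) with AMP (adjusted p = 0.0234). These falls are relative to the other genes: with library totals they turned to 0.11 and 0.08. They were also lost when only genes averaging 10 CPM or more were fitted (adjusted p = 0.0961 and 0.128), and the AMP fall was lost without any 1 of the 3 DMSO libraries, AMP replicate 1 or AMP replicate 3 (highest adjusted p = 0.0801).

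Gpx1 and Gpx4, the intracellular selenocysteine peroxidases, moved little. Gpx1 (9:108338903-108340343, plus strand), which reduces hydrogen peroxide in the cytosol and mitochondria, was at 293, 312 and 481 FPKM with DMSO and 476, 379 and 365 FPKM with adenosine in batch 1, with DMSO replicate 3 above all the rest (log2 fold change 0.18, adjusted p = 0.454). Without that library it was called higher, at 0.43 with an adjusted p of 0.0306. In batch 2 it was at 183, 193 and 213 FPKM with DMSO, 206, 251 and 287 with adenosine and 263, 226 and 203 with AMP, and the groups overlapped. Gpx1 rose by 0.33 (SE 0.11, adjusted p = 0.0165) with adenosine, a call lost without DMSO replicate 1 (adjusted p = 0.0657) or adenosine replicate 3 (adjusted p = 0.114). With AMP its log2 fold change was 0.23 with an adjusted p of 0.0796, which passed when only genes averaging 10 CPM or more were fitted (adjusted p = 0.0307), in the fit of the 6 AMP and DMSO libraries alone (adjusted p = 0.037), with library totals (0.50) and without adenosine replicate 1 or AMP replicate 3.

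Gpx4 (10:80047166-80056439, plus strand), the peroxidase that reduces lipid hydroperoxides in membranes and so holds off ferroptosis, passed the test in none of the comparisons with DMSO. It was at 153, 156 and 172 FPKM with DMSO and 146, 162 and 121 FPKM with adenosine in batch 1, and at 94.9, 113 and 108 FPKM with DMSO, 102, 117 and 115 with adenosine and 95.8, 104 and 104 with AMP in batch 2. The 95% intervals of its log2 fold change were -0.43 to 0.11, -0.09 to 0.25 and -0.22 to 0.12. Its adjusted p-values were 0.341, 0.406 and 0.591, and with library totals the batch 2 values were 0.39 with adenosine (adjusted p = 0.00125, called higher) and 0.22 with AMP, where the sign turned (adjusted p = 0.0483).

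Gpx7 and Gpx8, which carry cysteine in place of selenocysteine and reside in the endoplasmic reticulum, where they take part in oxidative protein folding, went separate ways. Gpx7 (4:108400390-108406961, minus strand) was at 13.3, 13.8 and 16.7 FPKM with DMSO and 8.23, 7.03 and 4.51 FPKM with adenosine in batch 1. In batch 2 it was at 9.83, 13.8 and 12.4 FPKM with DMSO, 4.17, 5.71 and 4.51 with adenosine and 5.72, 4.54 and 4.72 with AMP. No treated library reached a DMSO library of its batch. Gpx7 fell by 1.14 (SE 0.25, adjusted p = 0.00300, 2.21-fold), by 1.32 (SE 0.19, adjusted p = 1.57e-05, 2.50-fold) and by 1.26 (SE 0.19, adjusted p = 3.37e-05, 2.40-fold) on the log2 scale, from 163 to 338 counts per DMSO library. It was the only one of the 7 members listed by family that was called in the same direction in all 3 comparisons, and it stayed called in them when each library was left out in turn. The authors' deposited table gives 1.15 for batch 1, coded as DMSO over adenosine, with an adjusted p of 8.17e-05.

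Gpx8 (13:113042763-113046388, minus strand) was at 101, 101 and 95.7 FPKM with DMSO and 92.0, 94.9 and 86.0 FPKM with adenosine in batch 1, a log2 fold change of -0.12 with an adjusted p of 0.447 that turned to 0.08 with library totals. In batch 2 it was at 88.7, 84.6 and 95.4 FPKM with DMSO, 90.5, 113 and 105 with adenosine and 118, 134 and 116 with AMP. The AMP libraries lay above all others of batch 2, and Gpx8 rose by 0.45 (SE 0.09, adjusted p = 4.15e-04, 1.37-fold) with AMP. With adenosine the log2 fold change was 0.19 with an adjusted p of 0.0711. That value passed when only genes averaging 10 CPM or more were fitted (adjusted p = 0.0182), in the fit of the 6 libraries of both groups (adjusted p = 0.0399), with library totals (0.50) and without adenosine replicate 1 (adjusted p = 0.0136).

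Cat (2:103453849-103485160, minus strand), the peroxisomal catalase, rose with adenosine in both batches. It was at 29.7, 36.04 and 32.3 FPKM with DMSO and 45.3, 40.9 and 46.8 FPKM with adenosine in batch 1, without overlap, and rose by 0.45 on the log2 scale (SE 0.12, adjusted p = 0.0123, 1.37-fold). This call was lost without DMSO replicate 1 (adjusted p = 0.0709) or adenosine replicate 3 (adjusted p = 0.0627). The authors' deposited table gives -0.44, coded as DMSO over adenosine, with an adjusted p of 0.00752. In batch 2 Cat was at 29.6, 25.6 and 25.8 FPKM with DMSO, 32.1, 34.8 and 35.1 with adenosine and 26.7, 25.7 and 30.9 with AMP. It rose by 0.32 with adenosine (SE 0.09, adjusted p = 0.00472, 1.25-fold), while the AMP libraries overlapped the DMSO libraries (log2 fold change 0.04, 95% interval -0.15 to 0.23, adjusted p = 0.703, and 0.31 with library totals).

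**Figure D2:**
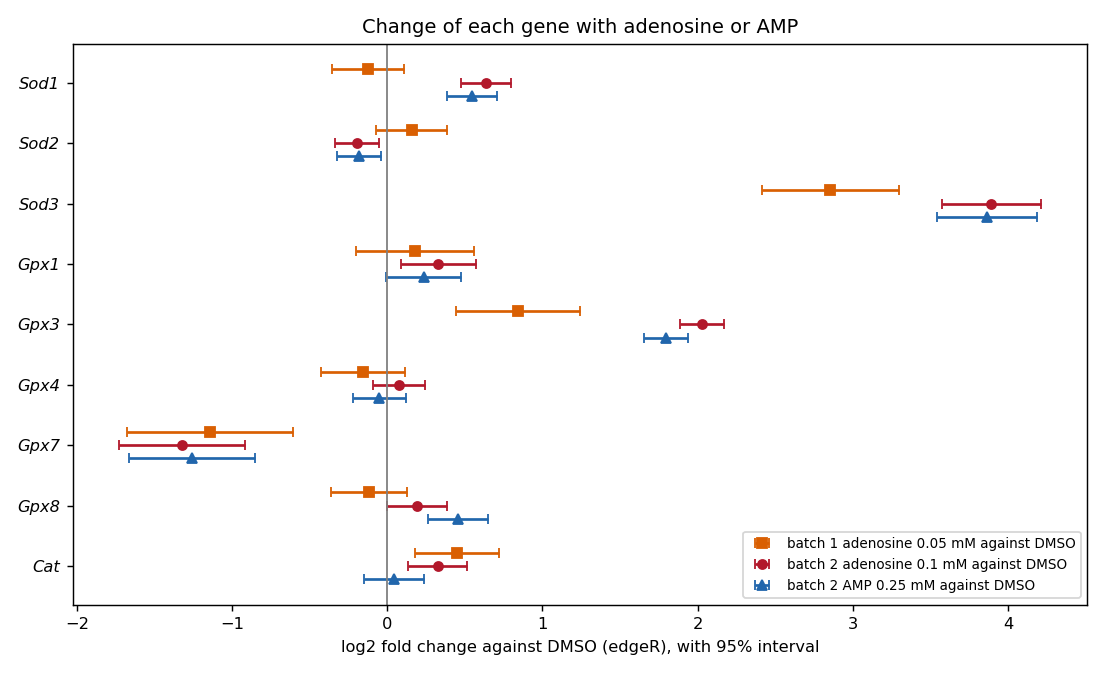
Log2 fold change against the DMSO libraries of the same batch (horizontal axis) for each gene, with the unadjusted 95% interval from edgeR, for 0.05 mM adenosine in batch 1 (squares), 0.1 mM adenosine in batch 2 (circles) and 0.25 mM AMP in batch 2 (triangles). Sod3 reaches 2.86 to 3.89, Gpx7 lies between -1.32 and -1.14, and the intervals of Gpx4 span 0 in all 3.

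The calls among the 7 genes listed by family stand beside those of all genes tested. In batch 1, 1 of 7 was called higher (Cat) and 1 lower (Gpx7), where 19.6% and 19.5% of all tested genes were called. With adenosine in batch 2, 3 were higher (Sod1, Gpx1, Cat) and 2 lower (Sod2, Gpx7), against 34.9% and 34.5% of all genes. With AMP, 2 were higher (Sod1, Gpx8) and 2 lower (Sod2, Gpx7), against 33.7% and 31.8%. The median log2 fold change of the 7 genes was -0.12, 0.19 and 0.04, against 0.03, 0.01 and 0.01 over all genes. The FPKM of treated and DMSO libraries did not overlap for 5 of the 7 in batch 1, where this held for 51.5% of all genes, and for 4 of 7 with each treatment in batch 2, against 73.5% and 70.5% of all genes. The comparisons in batch 2 share their DMSO libraries.

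The make-up of each family changed along with its secreted member, as the shares of the summed FPKM show. Sod1 held 93.3% ± 0.334 (SD, n = 3) of the dismutase FPKM in batch 1 DMSO and 86.2% ± 0.744 with adenosine, while Sod3 went from 1.02% ± 0.257 to 7.39% ± 1.06. In batch 2 the Sod3 share was 0.6003% ± 0.168 with DMSO, 5.76% ± 0.646 with adenosine and 5.99% ± 0.376 with AMP, and the Sod2 share was 12.1%, 6.84% and 7.28%. Gpx3 held 36.4% ± 8.19 of the glutathione peroxidase FPKM in batch 1 DMSO and 49.8% ± 4.32 with adenosine. In batch 2 its share was 17.7% ± 1.13 with DMSO, 43.3% ± 3.57 with adenosine and 39.6% ± 0.970 with AMP, and that of Gpx1 was 40.1%, 30.1% and 30.3%. Shares of a sum are not independent, and Sod3 and Gpx3 were chosen for being higher, so these are descriptions.

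**Figure D3:**
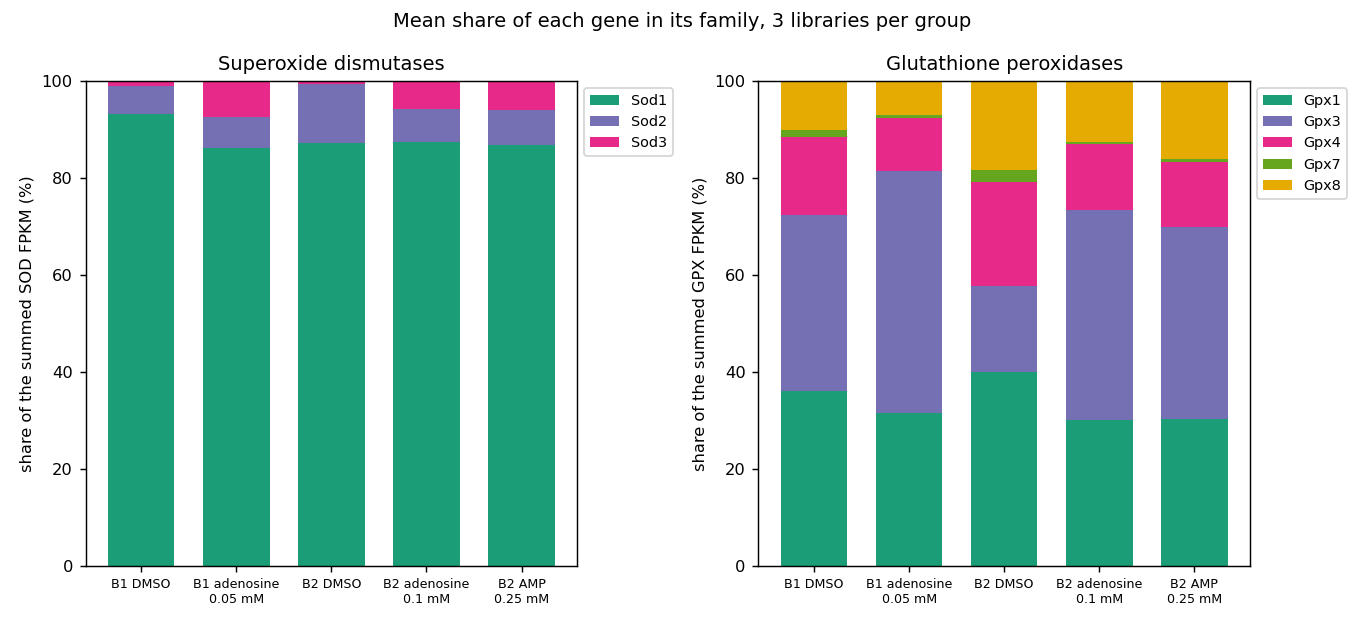
Mean share of each gene (vertical axes, percent) in the summed FPKM of the dismutases (left) and glutathione peroxidases (right) in the 5 groups, 3 libraries each. Sod1 makes up 86.2% to 93.3% of the dismutase bars, and the Gpx3 segment goes from 17.7% to 43.3% between DMSO and adenosine in batch 2.

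AMP at 0.25 mM and adenosine at 0.1 mM were then compared within batch 2, where 6.51% of 13063 genes were called. Of the 7 genes listed by family edgeR called 0, with 2 at an unadjusted p under 0.05, while DESeq2 called 1 and limma 0. Gpx3 had a log2 difference of -0.23 (unadjusted 95% interval -0.36 to -0.09), given without a test. All 3 AMP libraries lay below all 3 adenosine libraries. The value ran from -0.26 to -0.21 with 1 library left out, and in none of those fits would it have been called. Cat had a log2 difference of -0.28 (95% interval -0.47 to -0.09) and Gpx8 of 0.26 (95% interval 0.07 to 0.45), each without overlap between the libraries, as for 23.8% of all genes, but with adjusted p-values of 0.0772 and 0.102. For Cat the DESeq2 alternative gave an adjusted p of 0.0485, and leaving out AMP replicate 3 gave 0.0255. Sod3 had a difference of -0.03 with a 95% interval of -0.28 to 0.22. The intervals of Sod1 (-0.25 to 0.07), Sod2 (-0.13 to 0.15), Gpx1 (-0.33 to 0.14), Gpx4 (-0.30 to 0.04) and Gpx7 (-0.36 to 0.49) also included 0, which does not show that the treatments act alike.

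The adenosine effect was next compared between batch 2 (0.1 mM) and batch 1 (0.05 mM) in a fit of all 15 libraries with an interaction term, in which 11.9% of 13060 genes were called (819 larger in batch 2 and 737 smaller, or 1061 and 333 with library totals, which moved the median of all genes to 0.11). Of the 7 genes listed by family, Sod1 was called larger, as were 6.27% of all genes, and Sod2 smaller, as were 5.64%. The Sod1 effect was larger in batch 2 by 0.76 on the log2 scale (SE 0.12, adjusted p = 0.00108). In FPKM all 3 adenosine libraries were below DMSO in batch 1, the closest pair at 592.2 and 592.4, and above it in batch 2. In CPM the batch 1 libraries overlapped, at 366 to 389 with DMSO and 374 to 417 with adenosine. The Sod2 effect differed the other way, by -0.35 (SE 0.10, adjusted p = 0.0361), with the opposite arrangement of its libraries in FPKM. In CPM its adenosine libraries lay above DMSO in batch 2 too, at 152 to 159 against 141 to 148. The Sod2 call was lost without any 1 of 10 of the 15 libraries (highest adjusted p = 0.0976, without batch 2 DMSO replicate 2). It was also lost with library totals (-0.24, adjusted p = 0.180), with the minimum of 10 CPM (adjusted p = 0.0566) and with a replicate block (adjusted p = 0.0550). For Sod3 and Gpx3 the difference was 1.04 (95% interval 0.46 to 1.62) and 1.19 (95% interval 0.75 to 1.62), given without a test. For both, the DMSO libraries lay lower in batch 2 than in batch 1, with mean levels of 2.10 against 6.85 FPKM for Sod3 and 86.5 against 364 FPKM for Gpx3, and the adenosine libraries lay lower too. The intervals of Gpx1 (-0.33 to 0.64), Gpx4 (-0.07 to 0.54), Gpx7 (-0.84 to 0.47) and Cat (-0.42 to 0.18) included 0, and Gpx8 had 0.31 with an adjusted p of 0.135.

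**Figure D4:**
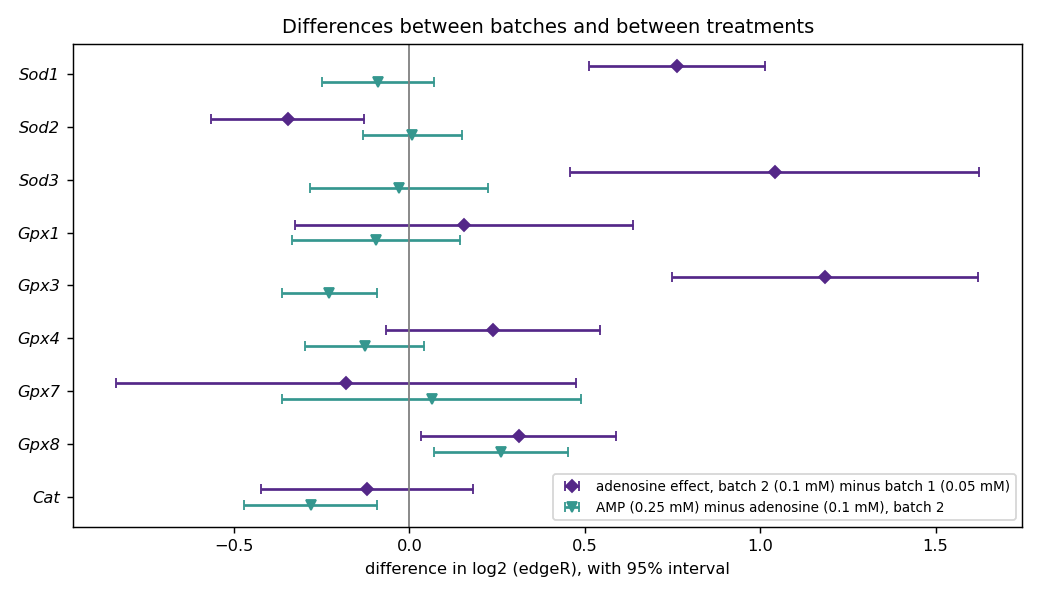
Difference in log2 (horizontal axis, with the unadjusted 95% interval from edgeR) for each gene, for the adenosine effect in batch 2 minus that in batch 1 (diamonds) and for AMP minus adenosine within batch 2 (triangles). Sod1, Sod3 and Gpx3 lie at 0.76 to 1.19 for the batch difference, and every AMP difference lies between -0.28 and 0.26.

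The partners of these enzymes were read from 13 lists of related genes, of which 29 of 102 tested genes were higher, 16 lower and 57 not called in batch 1. With adenosine in batch 2, 44 of 101 were higher and 31 lower, and with AMP 41 and 32, with medians of 0.09, 0.12 and 0.07. The lists were chosen with earlier results of these data known, so no test of a list is given, and each list's count is to be read against the shares of all tested genes called higher and lower, 19.6% and 19.5% in batch 1, 34.9% and 34.5% with adenosine in batch 2, and 33.7% and 31.8% with AMP. Most list genes described by name were taken because they were called in the same direction in all 3 comparisons, so that their calls restate this choice and p-values are given only where an alternative ended a call; Nqo1, Hmox1, Gclm, Txnrd1, Srxn1, Ccs, Sephs2 and Secisbp2 were listed by name.

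The list that leaned most to one side was that of regulators of antioxidant genes, taken with their reporter genes Nqo1 and Hmox1. It held Nfe2l2, the gene of NRF2, together with Keap1, Bach1 and FOXO, MAF and coactivator genes. The list was not sorted into activators and repressors, so its counts give no direction of activity. Of its tested genes, 8 of 14 were higher and 1 lower in batch 1 (median 0.58), and 11 of 13 were higher and 1 lower with adenosine and again with AMP in batch 2 (medians 0.95 and 0.67). Nqo1, a quinone reductase and classical target of the factor NRF2, was at 18.02 ± 2.50 FPKM with DMSO and 121 ± 2.30 FPKM with adenosine in batch 1 (SD, n = 3), and rose by 2.76, 3.70 and 2.71 on the log2 scale in the 3 comparisons. Mafk, a small MAF partner of NRF2, rose by 2.11, 1.82 and 1.82. Hmox1, heme oxygenase 1, rose by 0.69, 1.02 and 0.57, and its batch 1 call was lost with limma without a filter on low values (adjusted p = 0.0536). Ppargc1b, a coactivator of mitochondrial genes, fell by 1.85, 3.56 and 1.95.

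Glutathione itself is built by GCLC, GCLM and GSS, and all 3 genes rose in each comparison. Gss rose by 0.78, 1.29 and 1.16, Gclc by 0.59, 1.00 and 0.49, and Gclm by 0.91, 0.63 and 0.43 on the log2 scale. Over the list of glutathione synthesis and reduction, 3 of 10 were higher and 1 lower in batch 1, 5 and 2 with adenosine in batch 2, and 6 and 1 with AMP (medians 0.37, 0.32 and 0.41). Of the 11 genes of NADPH supply, which feeds the reduction of glutathione, 4 were higher in each comparison and 2, 6 and 6 were lower. Idh2 and Nnt, both mitochondrial, fell by 1.02, 1.92 and 1.91 and by 0.81, 1.27 and 1.76, and the cytosolic malic enzyme Me1 rose by 1.40, 1.09 and 0.72. The batch 1 fall of Nnt was lost when DMSO replicate 1 or either of the adenosine replicates 1 and 2 was left out (highest adjusted p = 0.0706), with library totals (-0.61, adjusted p = 0.0682) and with limma without a filter (adjusted p = 0.116).

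The other peroxidase systems were split. Among 6 peroxiredoxins 2 were higher in each comparison and 1, 3 and 4 lower, and among 6 genes of the thioredoxin system 3, 2 and 2 were higher and 1, 2 and 3 lower. Prdx1 rose by 0.82, 0.57 and 0.21 and Prdx2 fell by 0.42, 0.64 and 0.62. The smaller ends of both were lost without single libraries: Prdx2 in batch 1 without DMSO replicate 2 or adenosine replicate 3 (highest adjusted p = 0.0526) or with library totals (-0.22, adjusted p = 0.150), and Prdx1 with AMP without DMSO replicate 2 (adjusted p = 0.0639). Srxn1, the sulfiredoxin that repairs overoxidised peroxiredoxins, rose by 2.08, 1.99 and 1.27, from 14.9 ± 0.268 to 62.6 ± 6.53 FPKM in batch 1. Of the thioredoxin reductases, Txnrd2 (mitochondrial) rose by 0.74, 0.97 and 0.73 and Txnrd3 fell by 0.97, 1.46 and 1.03. Txnrd1 (cytosolic) rose by 0.39 in batch 1 (adjusted p = 0.0224), had -0.15 with adenosine in batch 2 (adjusted p = 0.0571) and fell by 0.27 with AMP (adjusted p = 0.00273). The Txnrd1 rise was lost without DMSO replicate 1 or 2 or adenosine replicate 3 (highest adjusted p = 0.129) and with limma without a filter (adjusted p = 0.0868). The batch 2 adenosine value of Txnrd1 was called lower without adenosine replicate 1 (adjusted p = 0.0281) or AMP replicate 3 (adjusted p = 0.0412), and with library totals the batch 2 values became 0.15 and -0.0016. None of the 4 glutaredoxins was called in batch 1, and 1 was higher in each comparison of batch 2.

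Gpx1, Gpx3 and Gpx4 need selenocysteine, and the machinery for it did not lean to one side: of 9 genes, 4, 4 and 3 were higher and 1, 3 and 3 lower in the 3 comparisons. Sepsecs, which makes the charged selenocysteine tRNA, fell by 0.75, 0.84 and 0.75. The batch 1 call of Sepsecs was lost with library totals (-0.55, adjusted p = 0.0506) and with limma without a filter (-0.55, adjusted p = 0.0771). Sephs2, which makes selenophosphate, rose by 0.76 in batch 1 (adjusted p = 5.38e-04) and had 0.17 and -0.07 in batch 2 (adjusted p = 0.161 and 0.585), of which the adenosine value was called higher with library totals (0.48, adjusted p = 7.41e-04). Secisbp2, which binds the selenocysteine insertion element, had -0.37 in batch 1 (adjusted p = 0.0637) and fell by 0.52 and 0.33 in batch 2. With library totals both batch 2 calls of Secisbp2 were lost, at -0.21 (adjusted p = 0.110) and -0.064 (adjusted p = 0.641). Its AMP fall was also lost without DMSO replicate 3 (adjusted p = 0.0783), and the batch 1 value passed without DMSO replicate 1 (adjusted p = 0.0372). Eefsec, the elongation factor for selenocysteine, and Secisbp2l were called higher in all 3 comparisons, but in batch 1 at adjusted p of 0.0426 and 0.0412. Eefsec lost that call without any of the 6 libraries, and Secisbp2l without any but DMSO replicate 2. Without a filter on low counts both batch 1 calls were lost (adjusted p = 0.206 and 0.0839). The Secisbp2l calls of batch 2 were also lost without DMSO replicate 2 or 3, and that with adenosine without adenosine replicate 1 or 2 (highest adjusted p = 0.137).

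Among 13 tested other selenoproteins, 3 were higher and 6 lower in every comparison (medians -0.29, -0.08 and -0.24). Selenop, which like GPX3 is secreted and carries selenium in plasma, rose by 1.45, 2.49 and 2.31. Selenoh, a nucleolar selenoprotein, fell by 2.30, 2.85 and 2.65, and Selenom, of the endoplasmic reticulum, fell by 1.16, 0.98 and 1.09. Selenop was at 6.15 ± 1.82 FPKM with DMSO and 16.7 ± 1.22 FPKM with adenosine in batch 1, far below Gpx3.

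**Figure D5:**
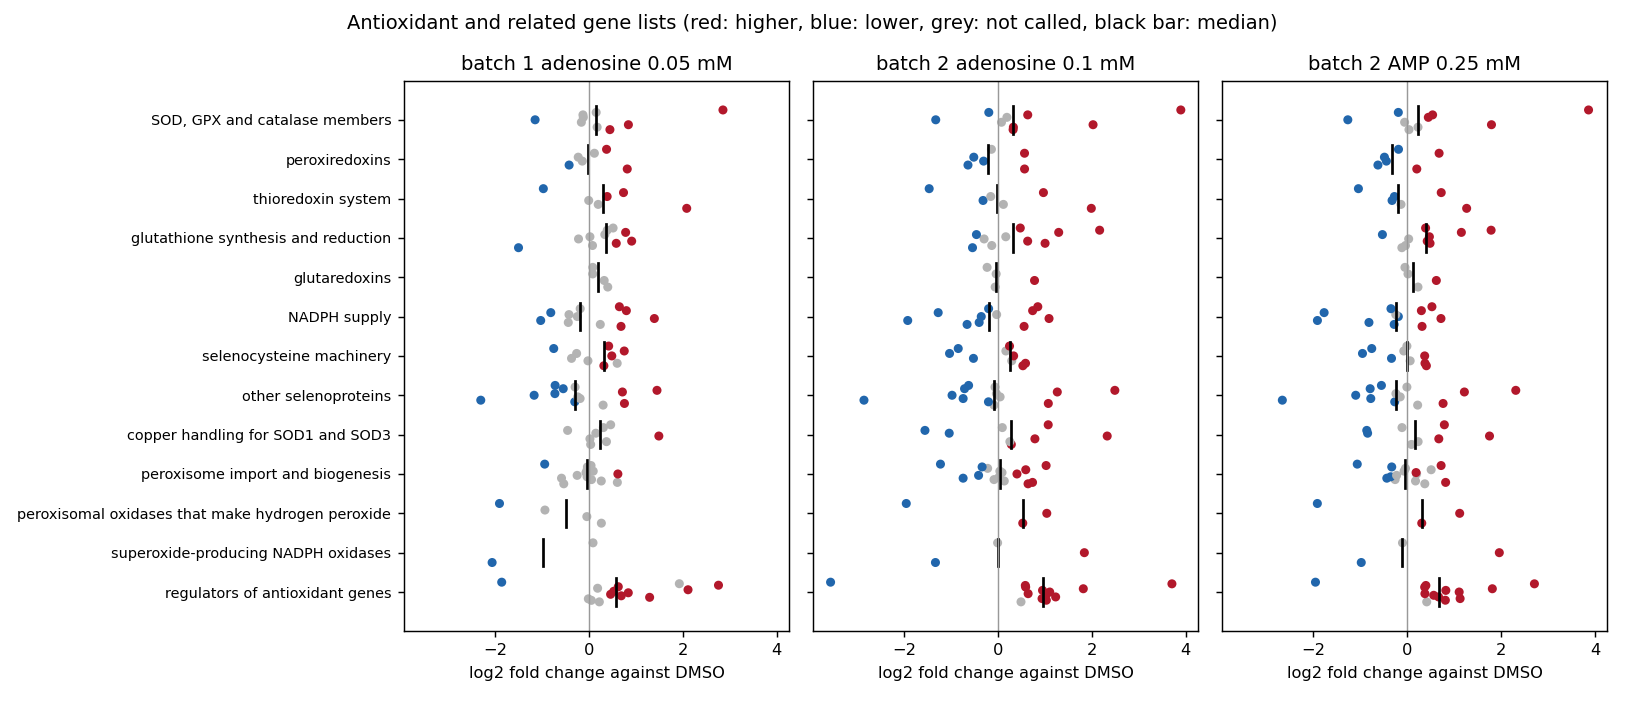
Log2 fold change against DMSO (horizontal axes) of each tested gene of the 9 members and of 12 lists of related genes, in the 3 comparisons. Red points were called higher, blue lower and grey not called, black bars are medians, and the regulators have medians of 0.58, 0.95 and 0.67.

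SOD1 receives copper from the chaperone CCS. Like Sod1, Ccs was called higher with each treatment in batch 2 and was not called in batch 1. Of all tested genes, 34.9% were called higher with adenosine in batch 2 and 33.7% with AMP. A link between Ccs and Sod1 was not tested. Ccs had 0.02 in batch 1 (adjusted p = 0.933) and rose by 0.79 and 0.68 in batch 2 (adjusted p = 4.94e-05 and 2.68e-04). Over 8 tested genes of copper handling, 1, 4 and 3 were higher and 0, 2 and 2 lower. Cox17, a mitochondrial copper chaperone, rose by 1.49, 2.33 and 1.76 from a low level of 0.651 ± 0.194 FPKM in batch 1 DMSO. For the compartment of catalase, 13 of 15 genes of peroxisome import and biogenesis were not called in batch 1, 5 were higher and 4 lower with adenosine in batch 2, and 3 and 4 with AMP. Pex7, a peroxisomal import receptor, fell by 0.94, 1.22 and 1.06. Of the peroxisomal oxidases, 1 of 4 was lower in batch 1 and 2 of 3 were higher and 1 lower with each treatment in batch 2. Paox, the polyamine oxidase, fell by 1.90, 1.95 and 1.91. Of the genes for superoxide-producing oxidases, 1 of 2 was lower in batch 1, and 1 of 3 was higher and 1 lower with each treatment in batch 2. Cyba, a membrane subunit of these oxidases, fell by 2.06, 1.33 and 0.97.

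Genes with profiles most like those of Gpx3 and Sod3 were ranked by Pearson's r of log2(CPM + 1), centred within each batch, over the 15 libraries, among 8365 genes averaging 10 CPM or more in both batches. This r is a description, because the libraries share the treatment that moved most genes. For Gpx3 the 5 highest were Bphl (0.995), Ephx1 (0.986), Tapbp (0.985), Pdcd4 (0.985) and Acadvl (0.985). For Sod3 they were Uap1l1 (0.993), Gpnmb (0.993), Spg20 (0.993), Cpt1c (0.992) and Extl3 (0.991). Gpx3 and Sod3 had an r of 0.959 with each other, at rank 178 from Gpx3 and rank 496 from Sod3.

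The stretch upstream of Sod1 is shown because it was the only promoter window among the members that held an antioxidant response element core, the motif through which NRF2 acts on genes such as Nqo1. RefSeq windows of GRCm38.p6, from 250 bases before to 50 bases after the start, were at hand for 8 of the 9 genes, Sod3 excepted. The 130 bases at chr16:90220602-90220731 (plus strand, 160 to 31 bases upstream, no annotated exon base of Sod1) have the motifs in capitals.
Sod1: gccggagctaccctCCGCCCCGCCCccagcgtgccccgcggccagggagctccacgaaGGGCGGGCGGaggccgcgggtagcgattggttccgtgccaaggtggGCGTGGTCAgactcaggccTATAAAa
From the left these are 2 overlapping GC boxes (GGGCGG) on the minus strand, 2 overlapping ones on the plus strand, the core TGACNNNGC on the minus strand at 56 bases upstream and a TATAAA box at 37 bases upstream. Both strands were searched, and 12.4% of 32851 promoter windows held the core, 35.7% the GC box and 13.6% the TATAAA box. Gpx3 had 1 GC box at 49 bases upstream of its RefSeq start, which lies inside the gene span given above. The windows of Gpx1, Gpx7, Sod2 and Cat also held GC boxes, that of Gpx1 at 8 bases after the start. Gpx4 had several windows, which held GC boxes except for the one farthest upstream. Of the 250 bases before the start, 82 for Gpx3, 177 for Gpx1 and 248 for Gpx7 lay in annotated exons of the same gene. For Gpx4 this was 0 to 171 bases, depending on the window. A match is a description of letters.

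The cells carried satellite cell markers in every group, at a lower summed level with treatment. Of the 9 markers 1 was called higher and 7 lower in batch 1, 2 and 7 with adenosine in batch 2, and 2 and 6 with AMP. The 9 markers summed to 7869 to 8263 CPM in batch 1 DMSO and 4477 to 5390 CPM with adenosine, and to 5895 to 6381, 3238 to 3936 and 3649 to 4464 CPM in the DMSO, adenosine and AMP libraries of batch 2. Markers of other cells moved beside the Sod3 and Gpx3 differences. The 10 leukocyte markers summed to 1.33 to 2.96 CPM with DMSO and 11.9 to 18.9 CPM with adenosine in batch 1, mostly Cd68, with Cd3e and Ly6g at 0 in both groups and Adgre1, Csf1r and Aif1 at 0 in DMSO. The 8 endothelial markers went from 6.01 to 8.91 CPM to 20.4 to 27.8 CPM, mostly Tek, and the 6 adipocyte markers from 68.9 to 78.6 CPM to 120.1 to 191 CPM, mostly Pnpla2, with Adipoq, Plin1, Lep and Cfd at 0 in DMSO. The 8 fibro-adipogenic markers did not separate (124 to 161 against 105 to 171 CPM), and the 8 smooth muscle and pericyte markers, mostly Acta2, went down from 214 to 564 CPM to 26.2 to 66.2 CPM. The 8 adult myofibre markers summed to 74.8 to 158 and 27.0 to 56.6 CPM, and the 6 erythroid markers stayed under 2 CPM. Batch 2 listed only part of these markers. It held 2 of 10 leukocyte (mostly Cd68), 2 of 8 endothelial (mostly Tek) and 1 of 6 adipocyte markers (Pnpla2). It also held 3 of 8 smooth muscle and pericyte, 4 of 8 fibro-adipogenic and 3 of 8 adult myofibre markers, and no erythroid marker. Of those listed, the leukocyte, endothelial and adipocyte markers summed higher in every treated library than in any DMSO library. The smooth muscle and pericyte markers summed lower, and the fibro-adipogenic and adult myofibre sums overlapped. In batch 1, 1 of 10 leukocyte, 4 of 8 endothelial and 1 of 6 adipocyte markers passed the filter on low counts. Whether such cells were present, and had any part in the Sod3 and Gpx3 differences, was not tested.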

How the data were processed

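RNA from 15 libraries was made into cDNA with Smart-seq2 and fragmented with Tn5, per the labels' protocols, a method that keeps no strand. The authors deposited counts per gene for each batch, and the submitters' processing notes name Trim Galore, STAR, featureCounts, Subread, DESeq2 and mm10. Per the file headers, batch 1 was counted with featureCounts 1.6.4 on read pairs with no strand option and an Ensembl GRCm38 annotation; the sources used here do not give the settings for batch 2. The deposited FPKM equal counts over length and library total times a factor per library. In batch 1 this factor was 1.046 to 1.084 for DMSO and 0.910 to 0.938 for adenosine. In batch 2 it was 1.104 to 1.15 for DMSO, 0.896 to 0.957 for adenosine and 0.891 to 0.974 for AMP. Treated libraries thus stand lower against DMSO in FPKM than in counts scaled to library totals, and orders and overlaps in FPKM depend on this factor. The deposited batch 1 table also holds the authors' log2 fold changes and adjusted p-values. Batch 2 had been filtered before deposit (smallest total 101 counts), and 43 of its lines named no gene (0.0589% of counts) and were left out. Of its 13063 genes, 13060 matched batch 1 by symbol.

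Counts were tested with edgeR 4.0.16 in R 4.3.3 (TMM, filterByExpr, two-sided quasi-likelihood F test, Benjamini-Hochberg adjustment, threshold 0.05). The fit of batch 1 used 6 libraries, those of the batch 2 comparisons 9 and the interaction 15. DESeq2 1.42.0, limma 3.58.1 on log2 FPKM, other scalings and filters and left-out libraries were alternatives. CPM are counts scaled to the library total, without TMM factors. A standard error is the log2 fold change over the square root of F. Scripts were tested on simulated data. Within a group, no pair of libraries was as close as counting noise alone would leave it (chi-square per degree of freedom 3.54 to 34.4).

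The members and the 13 lists were chosen with earlier results of these data known. Named genes are the 9 members, up to 3 genes per list called in the same direction in all 3 comparisons with DMSO (those with the largest smallest change), Nqo1, Hmox1, Gclm, Txnrd1, Srxn1, Ccs, Sephs2 and Secisbp2, and the 5 genes most like Gpx3 and Sod3.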

Additional observations from a re-analysis of the deposited data

Results flagged for a closer look

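The adenosine effect on Sod1 differed between batch 2 and batch 1 by 0.763 on the log2 scale in the interaction test (adjusted p = 0.00108, edgeR). Its difference stayed called in every setting tried, including each of the 15 libraries left out (0.73 to 0.81, highest adjusted p = 0.00405).

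The adenosine effect on Sod2 differed between the batches by -0.347 in the same test (adjusted p = 0.0361). Without each library in turn the value ran from -0.36 to -0.30, with adjusted p-values of 0.0297 to 0.0976. The call was also lost with library totals (-0.24, adjusted p = 0.180), with the minimum of 10 CPM (adjusted p = 0.0566) and with the replicate block (adjusted p = 0.0550).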

How the results depend on the processing

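Of 411 member fold changes recomputed under other scalings, filters and tests, 381 kept direction and call, and with each library left out 387 of 432 did. Reversed with library totals were Sod1 (0.072), Gpx4 (0.038) and Gpx8 (0.079) in batch 1, Sod2 with adenosine (0.11) and with AMP (0.081), Gpx4 with AMP (0.22), and among list genes Txnrd1 with adenosine in batch 2 (0.15) and Sephs2 with AMP (0.20). When only genes averaging 10 CPM or more were fitted, Gpx4 (0.022) and Sephs2 (0.0041) reversed with AMP. Ccs in batch 1 reversed without a filter on low counts (-0.018). Sod2, AMP against adenosine, near 0 throughout, reversed with DESeq2 (-0.0021), RLE factors (-0.0020), library totals (-0.033) and limma on log2 FPKM with pseudocounts of 1, filtered or not (-0.0029), and of 0.1 (-0.0030).

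Leaving out 1 library gave the following ranges where a sign changed. With AMP against DMSO they were -0.12 to 0.00019 for Gpx4 and -0.041 to 0.12 for Cat, and Sephs2 ran from -0.16 to 0.044. For AMP against adenosine they were -0.034 to 0.048 (Sod2), -0.13 to 0.079 (Sod3), -0.21 to 0.022 (Gpx1) and -0.046 to 0.21 (Gpx7). For the batch difference they were -0.11 to 0.29 (Gpx1) and -0.36 to 0.013 (Gpx7), and for Ccs in batch 1 -0.099 to 0.16. Called members numbered 1 to 3 of 7 in batch 1, 0 to 1 of 7 for AMP against adenosine (1, Cat, without AMP replicate 3), and 1 to 2 of 7 for the batch difference. All genes called numbered 408 to 991 for AMP against adenosine (main 851; 408 without adenosine replicate 3, 555 without AMP replicate 1, 519 without AMP replicate 2) and 898 to 2063 for the batch difference (main 1556; 898 and 1037 without batch 2 DMSO replicates 2 and 3).

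For AMP against adenosine DESeq2 called 1 of 7 members (Cat). For the batch difference 1 of 7 (Sod1) was called with library totals, with the 10 CPM minimum, and with the replicate block, where Sod2 lost its call. The labels number the replicates. Libraries of the same number correlated in their deviations by -0.172 to 0.196 in batch 1 (median 0.047) and -0.026 to 0.536 in batch 2 (median 0.282). For libraries of different numbers the ranges were -0.404 to 0.304 (median -0.025) and -0.486 to 0.24 (median -0.131). The main fits did not use the numbers as pairs, although in batch 2 libraries of the same number tended to deviate together. With the replicate block 5004, 9239, 8742, 1159 and 1727 genes were called in the 5 comparisons, against 5420, 9067, 8564, 851 and 1556 without it. Recomputed as counts per kilobase scaled to library totals, 23 of 45 mean member levels moved from the FPKM by more than 1 SD. The moves of the levels are by definition those of the factor per library in the deposited FPKM. The causes of the other changes were not tested. Depth limits Sod3 in batch 2 DMSO (58 to 112 counts) and Gpx7 (68 to 338 counts).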
